A study of Rattus norvegicus with 47 samples.

Results

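The genes described here are 6 immediate early genes of neurons, Fos (ENSRNOG00000008015), Egr1 (ENSRNOG00000019422), Arc (ENSRNOG00000043465), Npas4 (ENSRNOG00000020009), Junb (ENSRNOG00000042838) and Nr4a1 (ENSRNOG00000007607). They were chosen by Ensembl rat gene ID from a list that pairs each ID with its symbol, and all 6 were found among the 32883 gene IDs of the count table. All 6 also passed the filter on low counts that 17135 IDs passed. The study sequenced RNA from the prefrontal cortex of rats on postnatal day 1, after the mothers had received flame retardants once daily during gestation, and its title asks whether effects differ by sex and which part of the FM 550 mixture carries them. BFR is the pair of brominated compounds EH-TBB and BEH-TEBP, given at 1000 µg. OPFR is triphenyl phosphate together with its isopropylated form, also at 1000 µg, and FM550 is the commercial FireMaster 550 mixture at 2000 µg. The 47 libraries comprised 6 males and 6 females for each treatment except OPFR, with 6 males and 5 females. The labels used here do not name the strain, what the control mothers received, or which pups shared a litter. The p-values below therefore measure only the spread between these samples.

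Immediate early genes are transcribed within minutes of a stimulus without the need for new protein synthesis, and in neurons synaptic activity and calcium entry are the classical stimuli. Fos and Junb encode subunits of the AP-1 transcription factor, Egr1 encodes a zinc-finger transcription factor, and Nr4a1 encodes an orphan nuclear receptor. Arc encodes a postsynaptic protein that takes part in the removal of AMPA receptors from synapses. Npas4 encodes a bHLH-PAS transcription factor that is largely restricted to neurons and responds to depolarization, whereas the other transcription factors of the list also respond to growth factors and stress in many cell types. Their transcripts are short-lived.

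Transcription of these genes is classically driven by serum response factor, which binds the CArG box, and by CREB, which binds the cAMP response element TGACGTCA or its shorter form TGACG. RefSeq promoter sequences (GRCr8) were present for 4 of the 6 genes, and 3 of them are shown because they hold these motifs. Each covers the 250 bases before the listed start of transcription, 5′ to 3′ on the gene's strand, and capitals mark CArG boxes and TGACG on either strand.
Egr1, chr18:26736828-26737077, plus strand: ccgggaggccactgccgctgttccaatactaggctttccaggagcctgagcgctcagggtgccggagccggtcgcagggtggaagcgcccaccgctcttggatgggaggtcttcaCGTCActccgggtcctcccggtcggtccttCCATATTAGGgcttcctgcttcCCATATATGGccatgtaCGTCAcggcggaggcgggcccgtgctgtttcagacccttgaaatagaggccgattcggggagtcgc
Junb, chr19:40080876-40081125, plus strand: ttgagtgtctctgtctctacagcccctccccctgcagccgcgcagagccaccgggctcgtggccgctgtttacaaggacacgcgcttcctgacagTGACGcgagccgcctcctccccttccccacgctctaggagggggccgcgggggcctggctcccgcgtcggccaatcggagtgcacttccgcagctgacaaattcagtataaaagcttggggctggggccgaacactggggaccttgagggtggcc
Nr4a1, chr7:134259888-134260137, plus strand: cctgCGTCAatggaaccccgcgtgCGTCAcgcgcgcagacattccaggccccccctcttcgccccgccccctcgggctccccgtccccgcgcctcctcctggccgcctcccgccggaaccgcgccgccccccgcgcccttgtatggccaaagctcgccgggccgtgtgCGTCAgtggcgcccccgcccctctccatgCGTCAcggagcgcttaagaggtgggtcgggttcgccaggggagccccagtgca
The Egr1 window held 2 CArG boxes, the first 105 to 96 bases and the other 83 to 74 bases before the start, and 2 TGACG motifs. The Junb window held 1 TGACG motif and no CArG box. The Nr4a1 window, which belongs to a start inside the annotated gene, held 4 TGACG motifs and no CArG box. The Npas4 window, which also belongs to a start inside the annotated gene, held neither motif. The full TGACGTCA was in 0 of the 4 windows. Among 33469 rat promoter windows of the same length, 1.50% held a CArG box, 18.2% held TGACG and 1.59% held TGACGTCA, each searched on both strands. TGACGTCA contains TGACG, so the last share is part of the one before it. A match describes the letters only, and factor binding was not measured in these libraries.

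Libraries held 41.1 to 73.4 M counted reads, and levels are given as CPM, read counts scaled to a common library total after TMM scaling. The rarest of the 6 transcripts, Npas4, was still covered by 37 to 207 reads per library. The 7 control libraries whose titles are numbered 1 to 7 (Control males 1 to 5 and Control females 1 and 2) stood apart from the other 5 controls, titled 8 to 12 (Control male 6 and Control females 3 to 6), across many genes: 2762 of 16012 genes, or 17.2%, differed between these sets at an adjusted p below 0.05 (edgeR quasi-likelihood test with sex as a covariate). No label gives a batch that would account for this, so both sets are shown apart. Markers of neurons, glia, blood or meninges were not examined, because the files do not pair gene IDs with names. The genes lie in bulk tissue, where fewer cells of a type and less RNA per cell cannot be told apart.

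Fos was lowest in OPFR and highest in controls 1 to 7 by its median. It measured 4.10, 4.91 and 7.78 CPM (lowest, median, highest) in the 7 controls 1 to 7, and 3.62, 2.73, 4.77, 4.33 and 4.15 CPM in controls 8 to 12. The 12 BFR libraries spanned 2.19 to 5.59 CPM with a median of 3.91, the 11 OPFR libraries 2.76 to 5.66 with a median of 3.62, and the 12 FM550 libraries 2.85 to 7.13 with a median of 4.22. The ranges overlapped throughout, and 5 of 12 FM550 libraries lay above the highest of controls 8 to 12. Its AP-1 partner Junb measured 10.5, 16.2 and 19.1 CPM (lowest, median, highest) in controls 1 to 7, and 7.98, 9.73, 9.49, 15.9 and 14.4 CPM in controls 8 to 12. Junb spanned 8.68 to 14.1 CPM in BFR (median 12.2), 9.88 to 17.9 in OPFR (median 10.8) and 9.71 to 18.6 in FM550 (median 13.2). Below the Junb median of controls 1 to 7 lay 12 of 12 BFR, 10 of 11 OPFR and 10 of 12 FM550 libraries. Above that of controls 8 to 12 lay 9 of 12 BFR, 11 of 11 OPFR and 11 of 12 FM550 libraries. For neither Fos nor Junb was the share of all genes with such splits counted.

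Egr1 measured 17.6, 20.9 and 31.2 CPM (lowest, median, highest) in controls 1 to 7, and 15.7, 15.4, 15.2, 21.1 and 22.4 CPM in controls 8 to 12. It spanned 9.70 to 19.7 CPM in BFR (median 15.3), 11.8 to 20.5 in OPFR (median 14.1) and 12.5 to 25.3 in FM550 (median 18.0). All 12 BFR and all 11 OPFR libraries were below the Egr1 median of controls 1 to 7. How many of all genes show this was not counted, so it cannot be read as particular to Egr1. Against the median of controls 8 to 12 the split was 6 below and 6 above in BFR, and 6 below and 5 above in OPFR. Nr4a1, the nuclear receptor, had the narrowest ranges for its level. It measured 16.0, 11.7, 11.2, 12.7, 12.0, 13.8 and 11.7 CPM in controls 1 to 7, and 8.79, 7.81, 8.65, 9.37 and 9.53 CPM in controls 8 to 12, so the control sets did not overlap. Nr4a1 spanned 6.24 to 8.65 CPM in BFR (median 7.87), 7.23 to 10.6 in OPFR (median 8.85) and 7.70 to 12.9 in FM550 (median 9.85). All 12 BFR and all 11 OPFR libraries lay below the lowest of controls 1 to 7, which 3.75% and 3.04% of all genes also showed. All 12 BFR libraries lay below the median of controls 8 to 12 as well, as in 1.50% of all genes.

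Arc, the synaptic effector, measured 5.07, 6.05 and 12.8 CPM (lowest, median, highest) in controls 1 to 7, and 3.71, 4.87, 4.54, 6.50 and 7.29 CPM in controls 8 to 12. It spanned 3.26 to 6.66 CPM in BFR (median 4.49), 3.16 to 6.03 in OPFR (median 4.29) and 3.74 to 10.9 in FM550 (median 5.11). Npas4 measured 1.20, 1.97 and 3.72 CPM (lowest, median, highest) in controls 1 to 7, and 1.19, 1.60, 1.06, 1.32 and 1.79 CPM in controls 8 to 12. Npas4 spanned 0.565 to 2.00 CPM in BFR (median 1.39), 0.758 to 1.59 in OPFR (median 1.18) and 1.10 to 3.14 in FM550 (median 1.48). Among the exposures the OPFR libraries were the most tightly grouped for Npas4, and 9 of 11 lay below the median of controls 8 to 12. The share of all genes with that split was not counted. For both genes the ranges of the exposed libraries overlapped those of either control set.

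**Figure D1:**
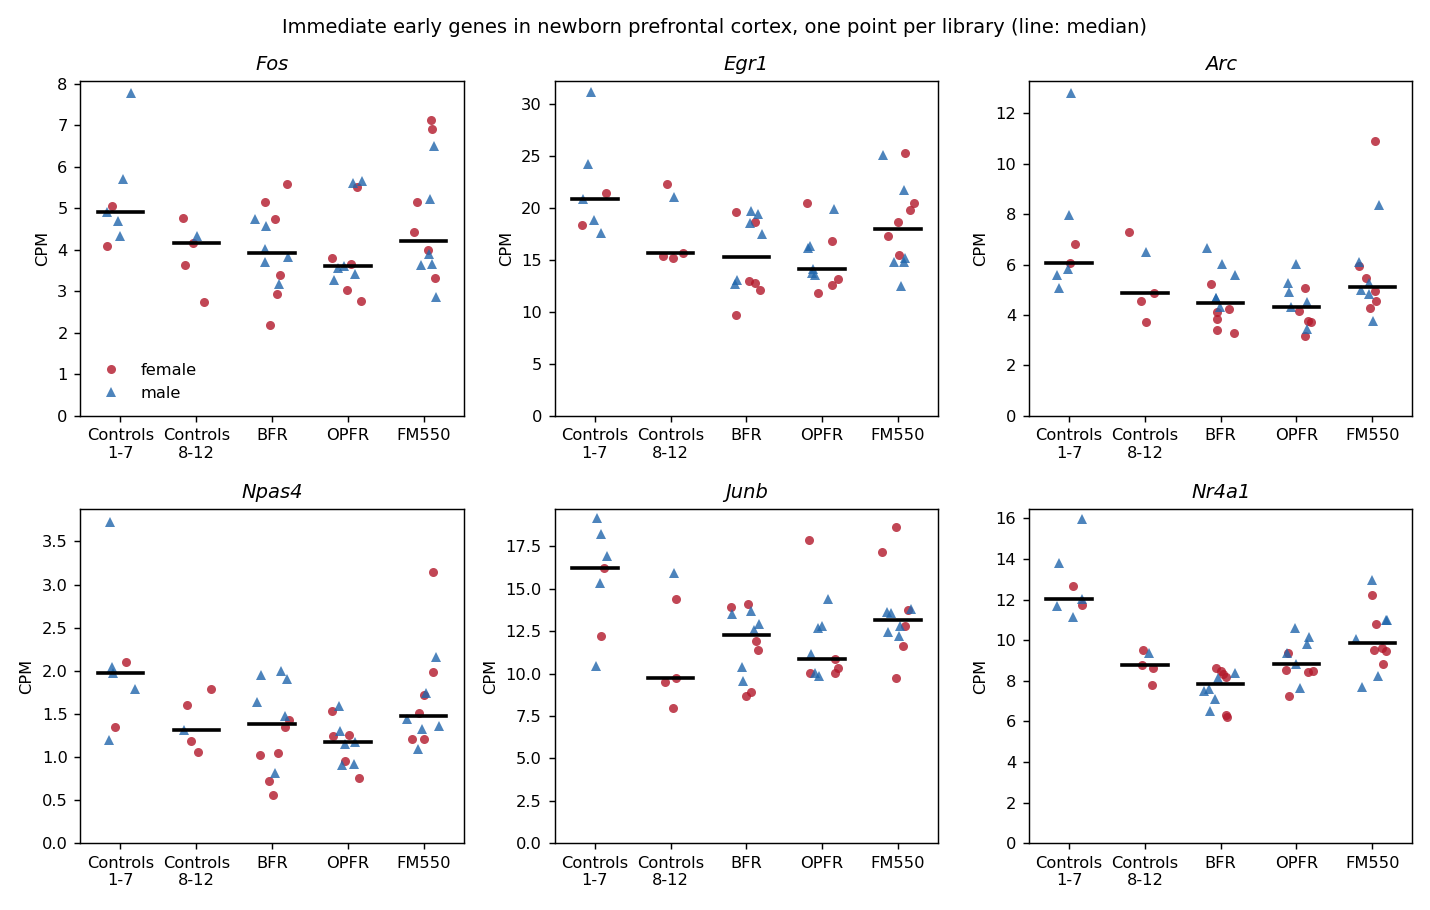
CPM of each gene (vertical axis, from 0) in every library, by set (horizontal axis), with circles for females, triangles for males and a line at the median. Nr4a1 is the gene whose controls 1 to 7 (11.2 to 16.0 CPM) lie wholly above controls 8 to 12 (7.81 to 9.53 CPM), BFR and OPFR.

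Within the controls, all 6 genes were higher in libraries 1 to 7 than in 8 to 12, by 0.15 to 0.46 on the log2 scale with a median of 0.27, against a median of -0.018 over all genes tested. Nr4a1 alone passed the test, with a log2 difference of 0.46 ± 0.11 (SE) and an edgeR adjusted p of 0.0115, so the share of the list called (1 of 6) is near the 17.2% of all genes called. That call was lost without Control female 1 (0.45, edgeR adjusted p = 0.0533) and without Control male 6 (0.50, edgeR adjusted p = 0.0534). Over its 16 alternatives the adjusted p ran from 3.67e-04 to 0.0534. Of all 17135 genes, 5.97% had the 7 controls wholly above the 5, as Nr4a1 did. The other 5 genes did not pass: Npas4 was higher by 0.43 ± 0.31 (SE) and Egr1 by 0.15 ± 0.17 on the log2 scale, with edgeR adjusted p of 0.390 and 0.600.

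Single libraries moved most of the list at once. Control male 1 held the highest value of all 47 libraries for every one of the 6 genes, while 4.26% of all genes had their highest value there. FM550 female 4 was next in line for Fos (7.13 CPM), Egr1 (25.3 CPM), Arc (10.9 CPM) and Npas4 (3.14 CPM), but not for Junb, at 13.7 CPM. FM550 male 2 followed these for Egr1 (25.1 CPM), Arc (8.35 CPM) and Npas4 (2.16 CPM). At the other end, BFR female 1 had the lowest Fos (2.19 CPM) and Egr1 (9.70 CPM) of all libraries, and BFR female 6 the lowest Npas4 (0.565 CPM). Within OPFR, Fos ran from 2.76 to 3.65 CPM in the 6 libraries titled 25 to 30 and from 3.56 to 5.66 CPM in the 5 titled 31 to 35.

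**Figure D2:**
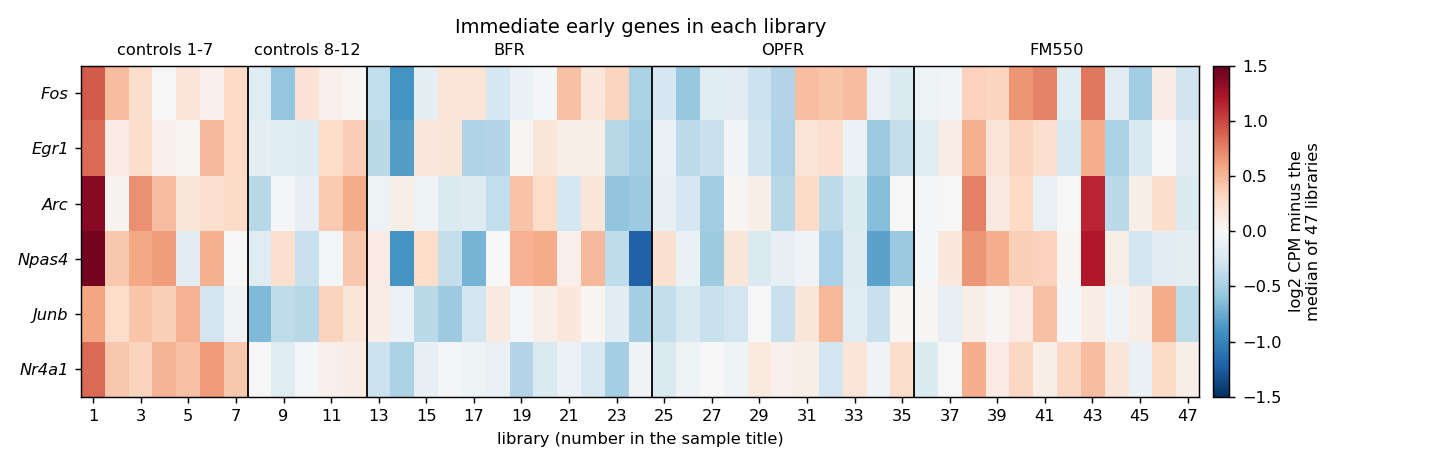
Log2 CPM of each gene minus its median over the 47 libraries (colour), with the genes as rows and the libraries in title order as columns. Library 1 (Control male 1) is red in every row, and library 43 (FM550 female 4) is red in every row, deepest for Npas4 and Arc.

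Each exposure was compared with the 6 controls of the same sex, and averaged over both sexes with all 12, in a single edgeR quasi-likelihood fit of all 47 libraries. The comparisons share their control libraries, of which 5 of 6 males and 2 of 6 females belong to libraries 1 to 7. Shares of all genes that passed are those of this edgeR fit, and the shares in the alternative fits are not given here. In females none of the 6 genes passed an adjusted p of 0.05 for any exposure, where 0% of genes passed for BFR, 3.10% for OPFR and 0% for FM550. DESeq2 and limma voom also called 0 of the 6 in females. Unadjusted edgeR p-values below 0.05 were seen for 3 of the 6 with BFR (7.85% of all genes), 1 with OPFR (19.6%) and 0 with FM550 (5.41%). The log2 fold changes lay between -0.57 (Npas4) and -0.02 (Junb) with BFR, between -0.49 (Arc) and 0.02 (Junb) with OPFR, and between 0.03 (Nr4a1) and 0.34 (Fos) with FM550. The sign changed under 7 of 56 alternatives for Fos with BFR and for Junb with BFR and OPFR, and with FM550 under 4 for Nr4a1 and 1 for Arc.

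In males all 6 genes had lower values than in the 6 control males with every exposure. The sign of Npas4 changed under 2 of 56 alternatives with BFR and under 1 with FM550. That of Nr4a1 changed under 1 with OPFR and under 2 with FM550. Fos, Egr1, Arc and Junb kept a negative sign under every alternative. With BFR, where 9.95% of genes passed, 1 of the 6 passed: Nr4a1 fell by 0.71 ± 0.12 (SE) in log2 units (edgeR adjusted p = 0.00123). With FM550, where 11.8% of genes passed, 0 of the 6 passed in edgeR or DESeq2, 1 passed in limma voom, and 2 had an unadjusted edgeR p below 0.05 (25.8% of all genes). Leaving out Control male 6 made Nr4a1 a call there (log2 -0.36, edgeR adjusted p = 0.0358). With OPFR, where 12.5% of genes passed, 4 of the 6 passed. The members' median log2 fold change with OPFR was -0.47, against -0.0034 over all genes.

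The genes that fell in OPFR males were Egr1, by 0.51 ± 0.17 (SE), Arc by 0.62 ± 0.21, Npas4 by 0.78 ± 0.26 and Nr4a1 by 0.39 ± 0.12 in log2 units (edgeR adjusted p = 0.0410, 0.0434, 0.0389 and 0.0286). Fos (-0.34) and Junb (-0.43) did not pass, with adjusted p of 0.326 and 0.0691. The 4 calls lay near the threshold and rested on single libraries. None of the 4 passed without Control male 1 (adjusted p = 0.114 to 0.238) or without OPFR male 2 (0.0516 to 0.102). Without Control male 3, OPFR male 1, OPFR male 5 or OPFR male 6, 1 of the 4 passed in each case, the adjusted p of the lost calls in these and the next fits lying between 0.0535 and 0.0857. Without OPFR male 3, Arc and Nr4a1 passed. Without Control male 5, Arc passed (adjusted p = 0.0440), and Junb became a call (-0.53, adjusted p = 0.0328). Junb was also called without OPFR female 4 (-0.44, adjusted p = 0.0443) and by limma voom (-0.43, 0.0244), which called 5 of the 6. The share of all genes that limma voom called is not given here. Without OPFR libraries 31 to 35 none passed, and with no filter on low counts or with only the compared groups in the fit 1 passed. Leaving out libraries 31 to 35 kept only OPFR males 1 to 3, and the fold changes of that fit are not given here. Over both sexes, mean CPM in libraries 25 to 30 and in 31 to 35 was 14.5 and 16.4 for Egr1 and 8.76 and 9.18 for Nr4a1. It was 4.36 and 4.43 for Arc, and 1.28 and 1.02 for Npas4.

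Averaged over both sexes, 3 of the 6 genes were lower with BFR than in the pooled controls, where 12.4% of all genes passed. Egr1 fell by 0.37 ± 0.12 (SE), Arc by 0.46 ± 0.15 and Nr4a1 by 0.53 ± 0.09 in log2 units (edgeR adjusted p = 0.0364, 0.0333 and 2.84e-04). The Egr1 call was lost, with adjusted p from 0.0524 to 0.0900, when any of 11 libraries was left out: Control males 1 and 5, Control females 1, 2 and 6, BFR males 1 and 3, and BFR females 1, 3, 5 and 6. The Arc call was lost, with adjusted p from 0.0521 to 0.105, without Control male 1 or 3, Control female 1, 2 or 6, BFR male 1 or 3, or BFR female 5. The Nr4a1 call was kept in all 47 such fits, with adjusted p of 2.14e-05 to 0.00104. By limma voom 2 of the 6 passed, without Arc (adjusted p = 0.0923). With OPFR 4 of the 6 were lower, where 19.3% of genes passed: Egr1 by 0.39 ± 0.12 (SE), Arc by 0.55 ± 0.15, Npas4 by 0.59 ± 0.19 and Nr4a1 by 0.31 ± 0.09 (edgeR adjusted p = 0.0226, 0.00899, 0.0222 and 0.0113). Here Egr1 was lost without Control male 1 (adjusted p = 0.0544) or OPFR female 5 (0.0555), and Npas4 without these (0.0674 and 0.0537) or Control female 1 (0.0540). Without OPFR libraries 31 to 35, or without OPFR females 4 and 5, Egr1 alone of the 4 passed, with edgeR adjusted p of 0.0783 and 0.0611 for Arc and 0.0564 and 0.0640 for Nr4a1. By limma voom Egr1 and Arc passed, and Npas4 (0.0798) and Nr4a1 (0.0829) did not. With FM550, 0 of the 6 passed in edgeR, DESeq2 and limma voom, where 8.13% of genes passed. None of the 6 had an unadjusted edgeR p below 0.05, against 22.0% of all genes, and their log2 fold changes lay between -0.14 (Arc) and 0.02 (Fos).

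Every call against controls depended on libraries 1 to 7, while the size of the differences moved by unequal amounts. With a model term for those libraries, 0 of the 6 genes passed against controls for any exposure, in males, in females or averaged. The adjusted p depends on all genes tested, and the share of them that passed with the term is not given here. With BFR averaged over both sexes, Nr4a1 then had an unadjusted edgeR p of 0.0257 beside an adjusted p of 0.999. The Nr4a1 value in OPFR males went from -0.39 to 0.018 with the term (edgeR adjusted p = 0.999), and in BFR males from -0.71 to -0.30 (edgeR adjusted p = 1.00). With libraries 1 to 7 left out, the differences in OPFR males went from -0.51 to -0.44 for Egr1, from -0.62 to -0.46 for Arc and from -0.78 to -0.17 for Npas4, and that of Junb was -0.43 and then -0.44. In BFR males Npas4 went from -0.30 to 0.0898 with the term and to 0.31 without those libraries. In FM550 males Nr4a1 went from -0.28 to 0.13 with the term and to 0.11 without them. Npas4 in FM550 males went from -0.40 to -0.0065 with the term and to 0.21 without them. Averaged over both sexes with libraries 1 to 7 left out, Arc measured -0.31 with BFR and -0.41 with OPFR on the log2 scale, Egr1 -0.29 and -0.31, and Nr4a1 -0.24 and -0.025. The lowest edgeR adjusted p among these was 0.485. That fit compares males with 1 remaining control male, Control male 6, whose spread is taken to be like that of the other groups.

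**Figure D3:**
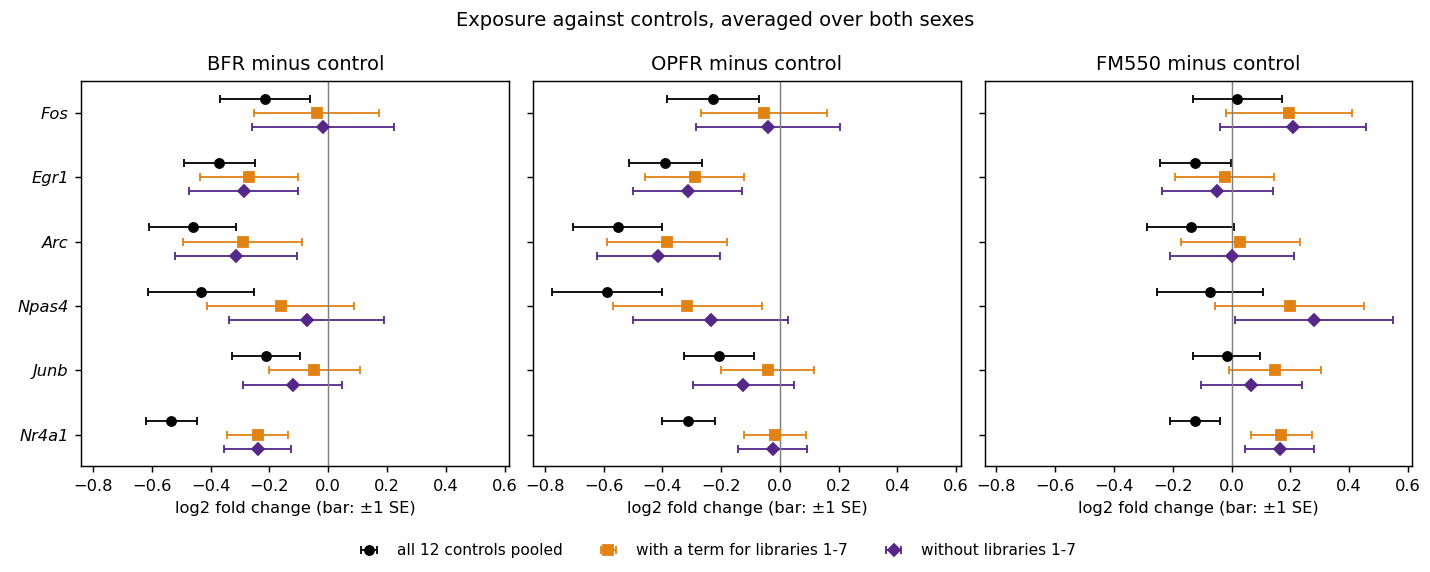
Log2 fold change against controls averaged over both sexes (horizontal axis, bars ±1 SE) for each gene, with all 12 controls pooled (black), with a term for libraries 1 to 7 (orange) and without them (purple). The Nr4a1 value with BFR moves from -0.53 to -0.24 in both alternatives, and with OPFR from -0.31 to near 0.

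The sexes did not differ in any of the 6 genes at an adjusted p of 0.05. Averaged over treatments, all 6 were higher in males, by 0.07 (Fos) to 0.24 (Arc) on the log2 scale, where 0.128% of all genes passed. Arc alone of the 6 had an unadjusted edgeR p below 0.05 (adjusted p = 0.999), as did 3.41% of all genes, and DESeq2 and limma voom called 0. With the term for libraries 1 to 7 the Arc difference was 0.20 and no longer below that unadjusted threshold. The exposure effects were also set against each other between the sexes. The interaction passed for 0% of genes with BFR, 0% with OPFR and 0% with FM550, and for 0 of the 6 genes in edgeR, DESeq2 and limma voom. With FM550 the male effect was below the female effect for all 6, by 0.31 (Nr4a1) to 0.64 (Npas4) on the log2 scale. The interaction is mixed with libraries 1 to 7, to which more control males (5) than control females (2) belong. With the term, Nr4a1 went to -0.08, Npas4 to -0.41, Arc to -0.38, Fos to -0.50 and Junb to -0.43. Unadjusted edgeR p-values below 0.05 were seen for Fos and Junb with FM550 (adjusted p = 0.533 and 0.510, 9.10% of all genes), for Nr4a1 with BFR (adjusted p = 0.956, 3.77% of all genes) and for 0 of the 6 with OPFR (8.32% of all genes). None of these 3 was below 0.05 with the term, where the Nr4a1 value with BFR went from -0.36 to -0.13. With libraries 1 to 7 left out, which leaves 1 control male, the Junb value with FM550 went from -0.55 to -0.71. That of Fos with FM550 was then -0.45, and that of Nr4a1 with BFR -0.15.

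Comparisons among the exposures use the controls only for the estimate of the spread. Each pair shares an exposure with another, and the FM550 dose differed from the other doses. The exposures also have separate title numbers, 13 to 24 for BFR, 25 to 35 for OPFR and 36 to 47 for FM550. A difference between such runs of libraries and one between exposures cannot be told apart. Nr4a1 was higher in FM550 than in BFR by 0.41 ± 0.09 (SE) in log2 units (edgeR adjusted p = 0.0287), where 35 of 17135 genes, or 0.204%, passed. The 12 BFR libraries (6.24 to 8.65 CPM) all lay below the FM550 median of 9.85 CPM (as in 1.29% of all genes), and 6 of them lay below the lowest FM550 library, at 7.70 CPM. The difference held with the term for libraries 1 to 7 (0.41, edgeR adjusted p = 0.00522), without those libraries (0.40, 0.0121), in DESeq2 (0.41, 0.00292) and in limma voom (0.42, 0.00727). It lost the call with no filter on low counts (edgeR adjusted p = 0.0514), with only the compared groups in the fit (0.0514), and when any of 10 libraries was left out: BFR males 1, 4 and 5, BFR females 1, 3 and 5, FM550 males 2 and 4, and FM550 females 3 and 5 (log2 0.37 to 0.42, edgeR adjusted p = 0.0510 to 0.0843). The other 5 genes were also higher in FM550 than in BFR, by 0.20 (Junb) to 0.36 (Npas4), without passing (edgeR adjusted p of 0.467 or above).

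Against OPFR, FM550 was higher for all 6 genes, by 0.19 (Nr4a1) to 0.51 (Npas4) on the log2 scale, and 0 of the 6 passed in edgeR, DESeq2 or limma voom. In that comparison 1 gene of all 17135 passed, or 0.00584%. An unadjusted edgeR p below 0.05 was seen for 17.9% of all genes and for 4 of the 6: Npas4 (0.51 ± 0.19 SE, adjusted p = 0.165), Arc (0.41 ± 0.15, 0.170), Egr1 (0.27 ± 0.12, 0.254) and Nr4a1 (0.19 ± 0.09, 0.259). OPFR and BFR differed in 4.75% of all genes and in 0 of the 6, with log2 differences from -0.15 (Npas4) to 0.22 (Nr4a1). Nr4a1 alone of the 6 had an unadjusted edgeR p below 0.05 there (adjusted p = 0.130), as did 22.1% of all genes, DESeq2 called 0 of the 6, and limma voom called Nr4a1 alone (0.29, adjusted p = 0.0203). In the order of Nr4a1 medians outside libraries 1 to 7, FM550 was followed by OPFR, controls 8 to 12 and BFR, and the neighbours FM550 and OPFR were not separated by the edgeR test. Without libraries 1 to 7, neither OPFR nor BFR was separated from the controls (-0.025 and -0.24).

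The spread between libraries of a group was larger than that of most genes for all 6, since between 56.9% (Nr4a1) and 84.6% (Npas4) of genes had a lower value. The biological coefficient of variation, edgeR's estimate of the spread beyond counting error, was 0.26 for Fos, 0.25 for Arc and 0.30 for Npas4, beside trend values of 0.25, 0.24 and 0.33 at their abundance. Egr1 and Junb, which are more abundant in counts, had 0.21 and 0.19 beside trend values of 0.15 and 0.16. The ratio of a gene's own value to the trend was lower in 92.1% of all genes for Egr1, 87.7% for Junb, 82.3% for Arc, 80.2% for Fos, 69.4% for Npas4 and 57.4% for Nr4a1. Nr4a1 had the lowest value of the 6, at 0.15 beside 0.19, and at 0.13 with the term for libraries 1 to 7. With that term 51.3% of genes had a lower value than Nr4a1, and 45.1% had a lower ratio to the trend. At the median level of controls 1 to 7, counting error amounts to 9.53% of the Npas4 value, 6.27% of the Fos value and 3.04% of the Egr1 value.

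Across the 40 libraries outside 1 to 7, the 6 genes moved together to different degrees. All 15 pairs had a positive Pearson correlation of log2 CPM, from 0.18 to 0.72 with a median of 0.41. By a permutation test with 100000 resamples, adjusted over the 15 pairs, 12 pairs passed an adjusted p of 0.05 by Pearson's r and 7 by Spearman's rho. The highest values joined Egr1 to Npas4 (r = 0.72, rho = 0.64), Egr1 to Fos (r = 0.71, rho = 0.68) and Arc to Npas4 (r = 0.70, rho = 0.60), followed by Egr1 and Arc (r = 0.67, rho = 0.62). Each of these 4 had a permutation p of 1e-05 by r, the smallest the resamples can give, and an adjusted p of 3.75e-05. By rho their permutation p-values were 1e-05, 2e-05, 4e-05 and 7e-05, with adjusted p of 1.5e-04, 1.5e-04, 2e-04 and 2.62e-04. Libraries were also left out by their distance from the median of the pair's gene that comes first in the opening list. Without the 2 farthest libraries, r was 0.63, 0.66, 0.57 and 0.71.

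**Figure D4:**
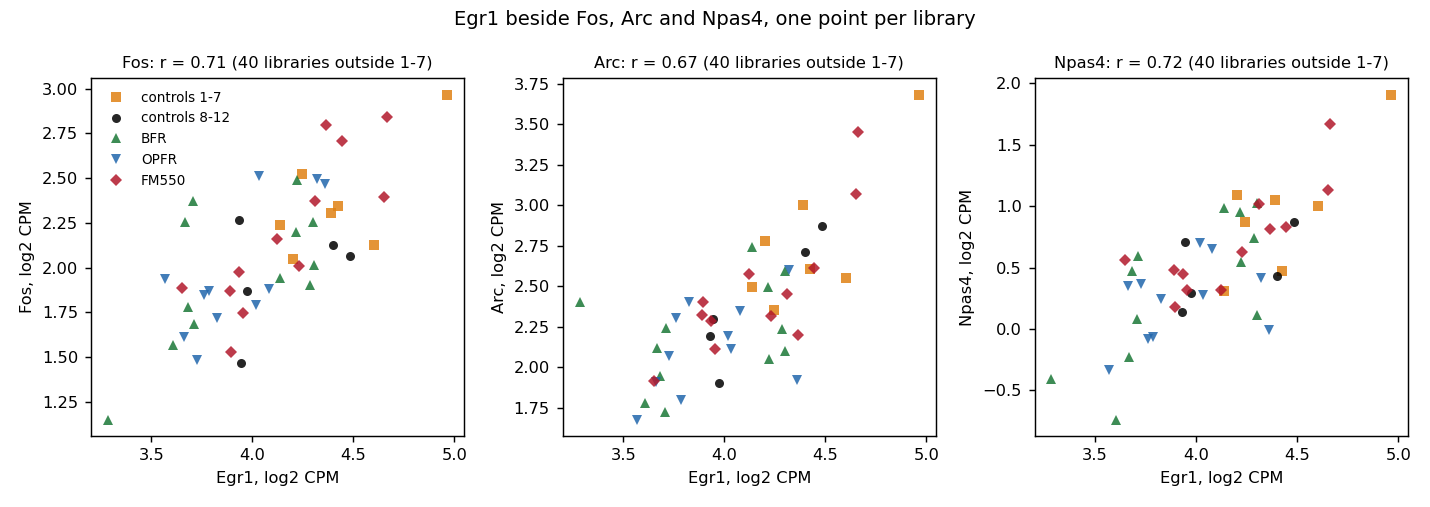
Log2 CPM of Fos, Arc and Npas4 (vertical axes) against Egr1 (horizontal axes), 1 point per library, with r over the 40 libraries outside 1 to 7. Control male 1 is the orange square at the top right of each panel and is not part of r.

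Fos and Arc, although each followed Egr1, were only weakly related to each other (r = 0.32, permutation p = 0.045, adjusted p = 0.0519, rho = 0.26 with adjusted p = 0.121, and r = 0.20 without the 2 farthest libraries). Junb was most closely related to Arc (r = 0.46, permutation p = 0.00221, adjusted p = 0.00663, rho = 0.53 with adjusted p = 0.00159, and r = 0.48 without the 2 farthest). The lowest Pearson r was that of Junb and Nr4a1 (r = 0.18, permutation p = 0.275, adjusted p = 0.275, rho = 0.17), and the lowest rho that of Npas4 and Nr4a1 (rho = 0.13, permutation adjusted p = 0.439, r = 0.29). The relations of Nr4a1 with Fos, Egr1 and Arc (r = 0.38, 0.41 and 0.40) did not pass by rho (permutation adjusted p = 0.0899, 0.0899 and 0.114), and that with Arc was 0.14 without the 2 farthest libraries. Taken as deviations from the means of treatment and sex, in 39 libraries, Egr1 and Fos had r = 0.70 and Egr1 and Npas4 0.66, and 5 of 15 pairs passed. Junb and Nr4a1 then had r = -0.02.

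Within treatments, the median r over the 15 pairs was 0.59 in the 12 FM550 libraries, 0.34 in the 12 BFR and 0.32 in the 11 OPFR libraries. Without the 2 farthest libraries of each pair these medians were 0.47, 0.083 and 0.0050. In controls 1 to 7, the median r was 0.67, and without the 2 farthest of the 7 libraries it was 6.04e-04, so the relation there rested on those libraries. The first principal component of the 6 genes held 55.6% of their variance over the 40 libraries, with all loadings of 1 sign and the largest for Egr1. The members share libraries and library totals. Their correlations with log2 total counts over the 40 libraries lay between -0.084 (Npas4, rho = -0.11) and 0.20 (Fos, rho = 0.23). None of these 6 relations passed, with permutation p from 0.217 to 0.908 by r and adjusted p of 0.908, and adjusted p of 0.735 or 0.934 by rho. Without the 2 libraries farthest in total counts, r lay between -0.21 (Egr1) and 0.14 (Fos).

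**Figure D5:**
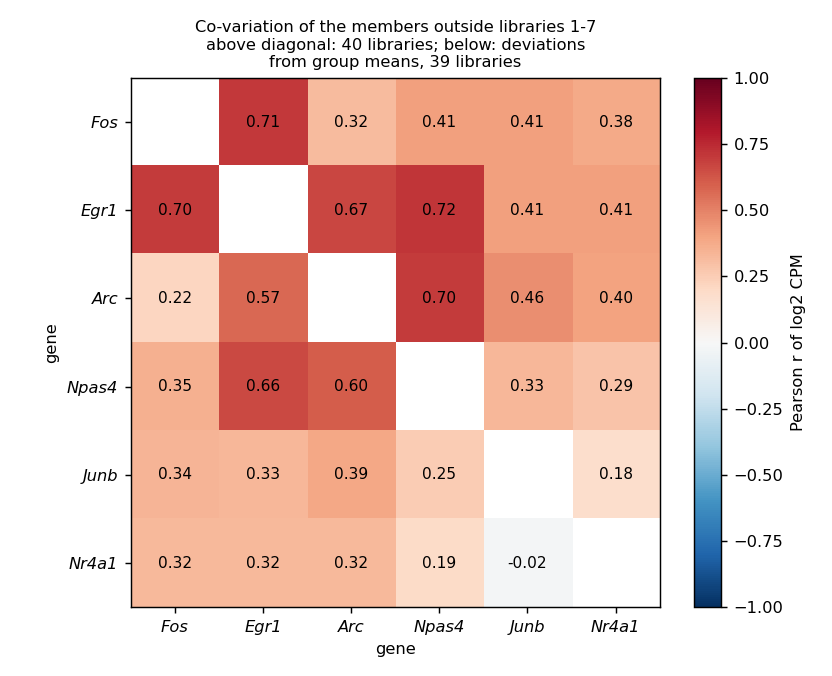
Pearson r of log2 CPM for each pair of genes (colour and number), over the 40 libraries outside 1 to 7 above the diagonal and over deviations from the group means in 39 libraries below it. The block of Egr1, Arc and Npas4, and the pair of Fos and Egr1, hold the highest values on both sides, from 0.57 to 0.72.

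The likeness of the genes was then placed among all genes kept. Of the 17134 other genes, the 3 with the highest r with Egr1 over the 40 libraries were Npas4, Fos and Arc, in that order. Egr1 was in turn the closest gene to Fos and to Npas4, and Arc was the next closest to Npas4. For Arc, Npas4 ranked 5 and Egr1 ranked 11. Junb and Nr4a1 had 0 of the other members among their 100 closest genes. In deviations from group means Fos, Npas4 and Arc ranked 1, 2 and 5 for Egr1, and without FM550 male 2 and FM550 female 4 they ranked 1, 3 and 4, whereas the rank of Npas4 for Arc went from 5 to 109. The genes outside the list with the highest mean r over the 6, among 12834 whose mean log2 CPM was 1 or more, were ENSRNOG00000015719 (mean r = 0.50, with 0.67 for Arc and 0.66 for Npas4) and ENSRNOG00000062101 (mean r = 0.42, with 0.56 for Arc). The median over those genes was -0.0048. Without FM550 male 2 and FM550 female 4, ENSRNOG00000018391 and ENSRNOG00000019813 took their place, each with a mean r of 0.42.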

How the data were processed

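RNA from the prefrontal cortex of newborn rats was sequenced in 47 libraries. Per the labels' protocols, directional libraries were prepared from poly(A) RNA. The authors deposited whole-number read counts per Ensembl gene ID in 1 table without normalization. FastQC, featureCounts and DESeq2 were used per the submitters' processing notes. Not given in the sources used here: aligner, build, and strand setting in counting. Overlapping genes were taken as counted. The table's 15 entries that name no gene hold no counts. The labels' treatment and sex defined the groups.

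The counts were filtered with filterByExpr (minimum count 10, minimum total 15), scaled by TMM (factors 0.95 to 1.10) and tested with edgeR 4.0.16 in R 4.3.3. The quasi-likelihood fit covered all 47 libraries and estimated 1 mean per group, tests were two-sided, and p-values were adjusted by Benjamini-Hochberg over all genes kept. Alternatives used limma 3.58.1, DESeq2 1.42.0, RLE factors, no filter, the compared groups alone, a term for libraries 1 to 7, and omitted libraries. Log2 CPM for correlations had a prior count of 2. The code was tested on simulated counts. The members and lists were chosen with earlier results of these data known. The libraries without FM550 male 2 and FM550 female 4 were examined as an alternative added after the data were seen. Gene IDs of the files matched 0 entries of the symbol table, so the marker lists drawn up for cell types were not tested. The genes named as most like the members are the 2 with the highest mean r. Promoters, positions and build come from RefSeq (GRCr8), matched by symbol.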

Additional observations from a re-analysis of the deposited data

Results flagged for a closer look

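In 4 of 48 combinations of gene and group, the highest library was separated from the next by more than Dixon's 95% critical value, and chance alone gives about 1 in 20. Control male 1 was such a library for Arc, at 12.8 CPM with the next Control male at 7.95 CPM, and for Npas4, at 3.72 CPM with the next at 2.04 CPM. FM550 female 4 was set apart for Arc, at 10.9 CPM with the next FM550 female at 5.93 CPM. OPFR female 4 was set apart for Junb, at 17.9 CPM with the next OPFR female at 10.8 CPM. That library held the highest value of all 47 libraries for 11.9% of all genes.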

How the results depend on the processing

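The number of the 6 genes called against the pooled controls was 1 (BFR males), 4 (OPFR males), 3 (BFR, both sexes) and 4 (OPFR, both sexes). It was 0 in each of these with the term for libraries 1 to 7, where the share of all genes passing is not given here. The Nr4a1 difference in OPFR males changed sign to 0.0178 with the term. So did those of Npas4 in BFR males (0.0898) and Nr4a1 in FM550 males (0.13), neither of them a call. With limma voom the number was 2 in BFR males, 5 in OPFR males, 2 for BFR and 2 for OPFR in both sexes, 1 in FM550 males (0 in edgeR) and 1 for OPFR minus BFR (0 in edgeR). With no filter on low counts it was 1 in OPFR males, 1 for BFR in both sexes and 0 for FM550 minus BFR (1 with the filter). With only the compared groups it was 1 in OPFR males and 0 for FM550 minus BFR. Without OPFR libraries 31 to 35 it was 0 in OPFR males and 1 for OPFR in both sexes, and without OPFR females 4 and 5 it was 1 for the latter. The fit without libraries 31 to 35 kept only OPFR males 1 to 3 and OPFR females 1 to 3. Leaving out 1 library at a time gave 0 to 4 calls in OPFR males, 0 to 1 in FM550 males, 1 to 3 for BFR and 2 to 4 for OPFR in both sexes, 0 to 1 for FM550 minus BFR and 0 to 1 between the control sets. The shares of all genes passing in these alternative fits are not given here, so the counts cannot be read as particular to the 6 genes. Of the 15 correlations, 12 passed on log2 CPM and 5 on deviations from group means, where Junb and Nr4a1 had r = -0.0231. The causes were not tested. RLE scaling moved the median log2 fold change of all genes by at most 0.024. No paired analysis was possible because the labels do not say which pups shared a litter. Npas4, at 37 reads in its lowest library, is the gene that depth limits most.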
